A study of Homo sapiens with 27 samples.

Results

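The nuclear genes of oxidative phosphorylation were compared across 4 lines of T47D, an established luminal breast cancer cell line. They were chosen by name alone: every gene of the count table whose symbol begins with NDUF, COX4 to COX8, UQCR or ATP5, together with SDHA, SDHB, SDHC and SDHD. This rule took 102 of 26485 genes, and 93 of them were expressed well enough to be tested among 14789 tested genes. Of the tested members, 75 were structural subunits of the 5 respiratory complexes, and the others were assembly factors, a supercomplex factor, tissue-restricted isoforms, near copies and antisense or pseudogene entries. Genes of complex V with other symbols, and the core subunit CYC1 of complex III, are not taken by the rule, and the subunits encoded by mitochondrial DNA were not analysed here.

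The control line carried the empty lentiviral vector, and the mutant lines carried a vector for a Ty1-tagged truncation mutant of the transcription factor GATA3, named Splice del, C321fs or A333fs. The study describes every line as still carrying its own wild-type GATA3. Counted GATA3 RNA averaged 1280 CPM (counts relative to the TMM-scaled library total) in control, 1000 in Splice del cells, 1140 in C321fs cells, and 1020 in A333fs cells. It was lower than control in Splice del (log2 fold change -0.36, edgeR adjusted p = 3.28e-05) and A333fs cells (-0.33, 4.51e-05), and C321fs cells were at -0.17 (adjusted p = 0.013). These gene-level counts do not separate RNA of the cell's own gene from that of the vector, so they do not check the labels. The study calls the libraries of a line biological replicates, without saying how far they were cultured apart. Each line was 1 stable pool, and 3 libraries were sequenced from each. Therefore p-values measure the spread between libraries of a pool, which may be technical, and an effect of the mutant cannot be told apart from any other way in which the pools differ. Libraries held 27872208 to 36788024 counted fragments. In all lines GATA3, the keratins KRT8, KRT18 and KRT19, EPCAM and ESR1 were detected, the T, endothelial and pericyte markers CD3E, PECAM1, CDH5 and PDGFRB had at most 2 counts in a library, and PTPRC had 0 counts. The luminal list itself differed between lines: its 9 genes summed to 18220 to 21440 CPM in control and to 12060 to 15000 CPM in the mutant lines. Most of that sum was KRT8, KRT18 and KRT19, which fell in all 3 lines (KRT8 with log2 fold changes of -1.02, -0.84 and -0.49, lines in the order Splice del, C321fs, A333fs), whereas EPCAM rose in all 3 (0.42, 0.37 and 0.37). Of the 9 genes 4, 4 and 5 were lower and 2, 1 and 2 higher. The 14 markers of other cell types summed to 70.3 to 85.8 CPM in control and to 56.5 to 72.3 CPM in the mutant lines, with 7 or 8 of them at 3 counts or fewer in every library of a line. The part of either list in the values below was not tested.

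Oxidative phosphorylation passes electrons from NADH (through complex I) and from succinate (through complex II) to ubiquinone, and from there through complex III, cytochrome c and complex IV to oxygen. Complexes I, III and IV pump protons across the inner mitochondrial membrane, and complex V, the ATP synthase, uses the return flow to make ATP. Most subunits are encoded in the nucleus, and tumor cells differ widely in how far they rely on this chain or on glycolysis.

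Levels differed widely between members. Per kilobase of exon, the highest control level was that of ATP5B, the catalytic beta subunit of complex V, at 979.8 ± 62.2 CPM per kb (SD, n = 3), followed by the complex IV subunits COX8A at 952.4 ± 48.9, COX6A1 at 837.1 ± 48.3, COX4I1 at 677.3 ± 27.3 and COX7C at 643.4 ± 26.2 CPM per kb. The first 2 of these did not differ beyond their spread. At the other end, COX8C, COX6A2 and COX4I2, isoforms restricted to other tissues, had at most 2 counts in a library. These 3, COX7A1 (2 to 9 counts), COX6B2 (0 to 8), ATP5L2 (0 to 7), NDUFAF4P1 (0 to 6) and the readthrough entries NDUFC2-KCTD14 and ATP5J2-PTCD1 (0 counts) were the 9 members too low to test.

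Compared with control, more members were lower than higher in each mutant line. In Splice del cells 48 of the 93 members fell and 1 rose (adjusted p below 0.01, edgeR quasi-likelihood test with Benjamini-Hochberg adjustment over all genes), where 22.4% of all tested genes fell and 18.7% rose. In C321fs cells 43 members fell and 3 rose, against 20.7% and 16.1% of all genes. In A333fs cells 31 members fell and 15 rose, against 26.4% and 21.0% of all genes. The changes were small. Past a fold change of 1.5 there were 10 members in Splice del cells (10.7% of all genes were past it, in either direction), 1 in C321fs cells (6.88% of all genes) and 5 in A333fs cells (12.3% of all genes), and all of them were lower than control. In that direction alone 670, 334 and 1007 of the 14789 tested genes were past it in the 3 lines. The members were NDUFS6, NDUFS7, NDUFS8, NDUFB7, NDUFA11, UQCRC1, COX7A2L, ATP5D, ATP5G1 and ATP5SL in Splice del cells, NDUFS6 in C321fs cells, and NDUFS7, NDUFS8, NDUFB7, ATP5D and NDUFA4L2 in A333fs cells. The numbers of members moved when 1 library was left out: the 10 members became 1 without control replicate 2, the 1 became 10 without C321fs replicate 1 and 0 without control replicate 2 or C321fs replicate 3, and the 5 became 2 without A333fs replicate 2 and 3 without control replicate 2. The same fits without C321fs replicate 2 or control replicate 2 left 27 and 25 members lower in C321fs cells, and without A333fs replicate 2 left 19 lower in A333fs cells. The 15 members higher in A333fs cells became 9 without A333fs replicate 1 or control replicate 1 and 8 without control replicate 3, and the 3 higher in C321fs cells became 1 without C321fs replicate 2. The 1 higher in Splice del cells became 2 without Splice del replicate 3 or A333fs replicate 2.

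Splice del, C321fs and A333fs cells had members' median log2 fold changes of -0.31, -0.26 and -0.12, where the median of all genes was 0.03, 0.02 and 0.01. Leaving out each library in turn gave medians of -0.345 to -0.276 in Splice del cells, of -0.36 (without C321fs replicate 1) to -0.173 (without C321fs replicate 3) in C321fs cells, and of -0.153 to -0.0689 (without A333fs replicate 2) in A333fs cells. With library totals alone as the scale, the median of all genes rose to 0.22, 0.19 and 0.16, the members' medians became -0.12, -0.10 and 0.02, and the counts became 29 lower and 13 higher for Splice del cells, 16 and 12 for C321fs cells, and 15 and 28 for A333fs cells. With upper-quartile scaling they were 17 lower and 24 higher in A333fs cells. A scaling moves the log2 fold changes of all genes together, so the distance of the members' median from that of all genes, -0.34, -0.28 and -0.13 in the order above, hardly depends on it and is no check of stability. As a share of all counted fragments, the 102 members took 1.37% to 1.43% in control, 1.26% to 1.29% in Splice del, 1.24% to 1.44% in C321fs and 1.39% to 1.45% in A333fs libraries. The lowest share of C321fs was replicate 3 and the highest was replicate 1, which exceeded all control libraries. Fewer cells with high expression and less RNA per cell cannot be told apart in such bulk libraries.

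**Figure D1:**
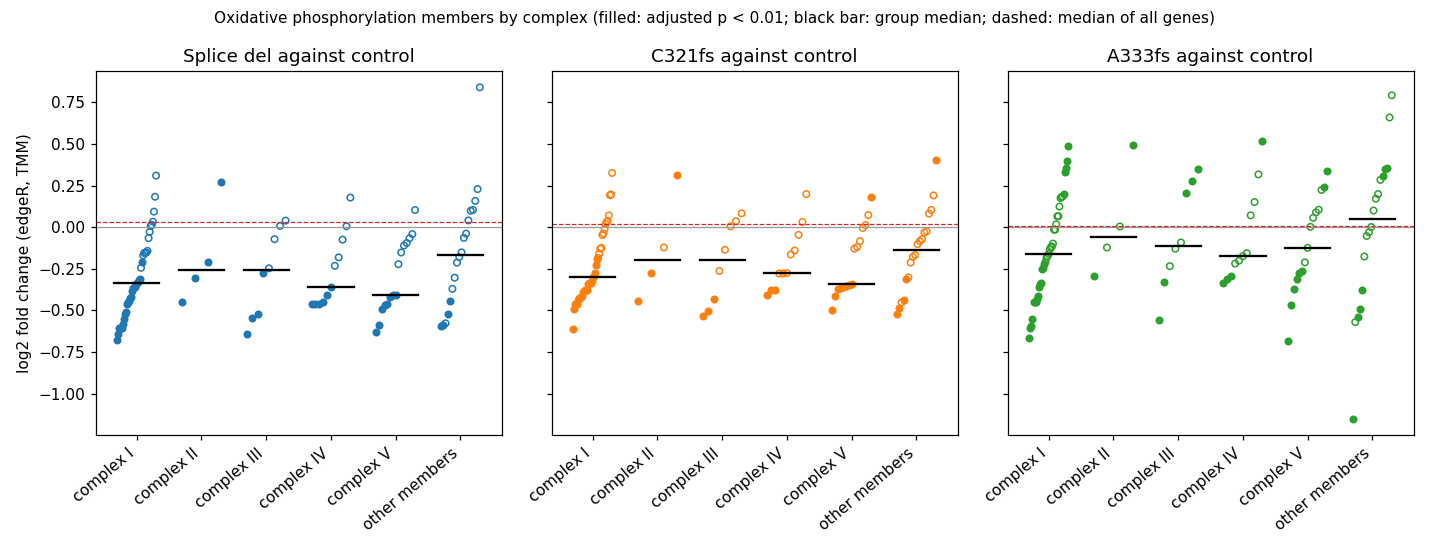
Log2 fold change of each tested member against control (y axis) for the 3 mutant lines, grouped by respiratory complex (x axis), with the remaining members last. Filled points have an adjusted p below 0.01, black bars are group medians and the dashed line is the median of all genes. On this scaling the median of every complex lies below 0 in each line, between -0.41 (complex V, Splice del) and -0.06 (complex II, A333fs), while with library totals alone the median of all members in A333fs cells is 0.02.

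By line, 29 of the 93 members (31.2%) fell in all 3 mutant lines, where 14.7% of all tested genes did, and SDHD alone rose in all 3, where 8.93% of all genes did. The edgeR test placed 0 members higher in 1 line and lower in another, a pattern of 1.03% of all genes, and 29 members passed in no comparison with control, as did 39.0% of all genes. The 3 comparisons share the control libraries, which by itself favors the same direction in all of them. An F-test over the 4 lines called 64 of the 93 members (68.8%), where 56.2% of all genes were called. That count ranged from 48 without control replicate 2 to 79 without C321fs replicate 1. It covered 27 of 37 subunits of complex I, all 4 of complex II, 7 of 8 of complex III, 7 of 11 of complex IV and 11 of 15 of complex V.

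By line means on the TMM scale, the summed level of each complex was lowest in Splice del, then C321fs, then A333fs cells. The TMM factors were 0.884 to 0.943 in control and 1.011 to 1.054 in mutant libraries, so the sums and ratios here depend on that scaling. As a share of all counted fragments, without it, the members took 1.37% to 1.43% in control and 1.26% to 1.29% in Splice del libraries. That share was 1.24% to 1.44% in C321fs and 1.39% to 1.45% in A333fs libraries. The 37 complex I subunits summed to 4737, 5109 and 4760 CPM in control, 3771, 3862 and 3952 in Splice del cells, 4503, 3977 and 3674 in C321fs cells, and 4419, 4229 and 4244 in A333fs libraries. The ratio of line means to control was 0.793, 0.832 and 0.883. For complex V it was 0.797, 0.845 and 0.908, for complex IV 0.799, 0.847 and 0.912, for complex III 0.827, 0.872 and 0.959, and for complex II 0.831, 0.847 and 0.942. Splice del libraries lay below every control library in all 5 complexes. C321fs replicate 1 lay inside the control range for complex IV and below it for the other complexes, and replicates 2 and 3 lay below it throughout. A333fs libraries came closest to control in complex III, at 1433, 1399 and 1401 against 1433, 1541 and 1441 CPM.

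**Figure D2:**
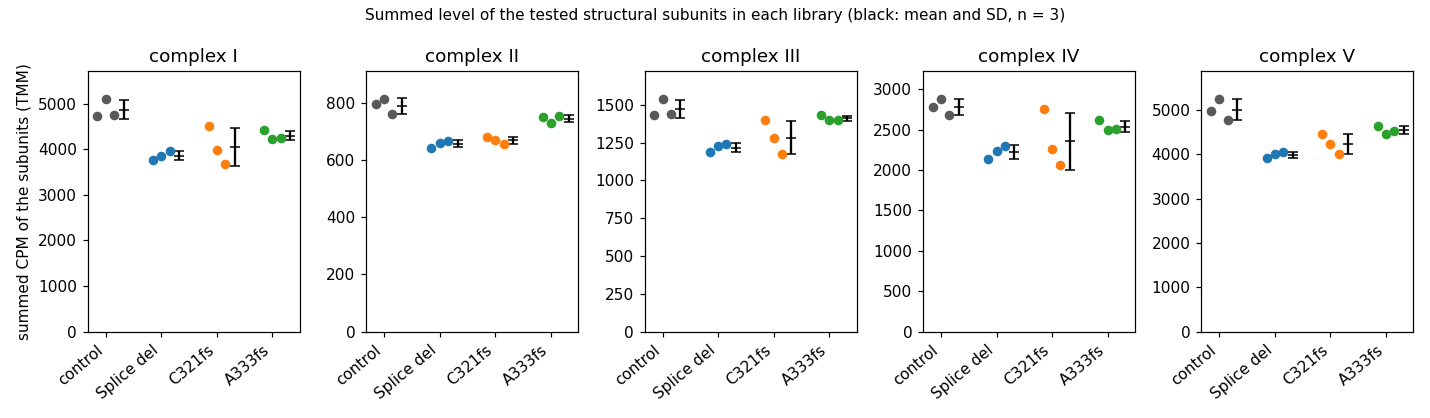
Summed CPM (TMM scaling, y axis from 0) of the tested structural subunits of each complex in each of the 12 libraries, by line, with the mean and SD (n = 3) in black. The 3 Splice del libraries are the lowest or among the lowest in every panel, and the C321fs points are the most widely spread in complexes I, III and IV, for complex IV from 2065 to 2752 CPM.

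Promoters of the members were searched for short motifs. Promoter windows of 300 bases (250 before to 50 after the start, RefSeq, GRCh38.p14) matched 71 of the 102 members, 67 of them tested. The core GCGCATGC (either strand) of NRF1, a factor long linked to respiratory genes, was in 20.9% of these 67 windows, the ETS core CCGGAAG in 26.9%, the YY1 core AAGATGGCG in 11.9%, the box GGGCGG bound by SP1 in 56.7%, and the GATA hexamers AGATAA or TGATAA in 11.9%. Among all 35116 windows of the same length the shares were 3.05%, 10.3%, 1.75%, 45% and 16.3%. In the 21 windows of members that fell in all 3 lines, 2 held the NRF1 core, 6 the ETS core, 3 the YY1 core, 13 the SP1 box and 0 a GATA hexamer. In the 9 windows of members that rose in at least 1 line, 2 held the NRF1 core, 2 the ETS core, 1 the YY1 core, 3 the SP1 box and 3 a GATA hexamer (UQCRH, NDUFB3 and NDUFS4). In the 20 windows of members that passed in no comparison with control, 5 held the NRF1 core, 3 the ETS core, 2 the YY1 core, 12 the SP1 box and 4 a GATA hexamer. These groups also differed in the base composition of their windows. The windows of UQCRH, NDUFB3 and NDUFS4 had 49.7%, 51.0% and 40.3% GC, and the 21 of members that fell in all 3 lines had 56.0% to 74.7%. The part of base composition in the shares with a GATA hexamer was not tested.

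Shown here are stretches that end at the base before the counted gene model, for NDUFS3, NDUFS6 and UQCR11, which fell in all 3 lines and hold an NRF1 or ETS core, for SDHD, the member that rose in all 3, and for UQCRH and NDUFS4, which rose in A333fs cells and hold a GATA hexamer. Capitals mark the NRF1 and ETS cores and the GATA hexamers on either strand. A match of letters is a description and not a site.
NDUFS3 (chr11:47578824-47579009, plus strand): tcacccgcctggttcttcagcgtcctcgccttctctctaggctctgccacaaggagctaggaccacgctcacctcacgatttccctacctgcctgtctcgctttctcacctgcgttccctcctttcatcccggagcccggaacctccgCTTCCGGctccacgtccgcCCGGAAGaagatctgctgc
NDUFS6 (chr5:1801157-1801381, plus strand): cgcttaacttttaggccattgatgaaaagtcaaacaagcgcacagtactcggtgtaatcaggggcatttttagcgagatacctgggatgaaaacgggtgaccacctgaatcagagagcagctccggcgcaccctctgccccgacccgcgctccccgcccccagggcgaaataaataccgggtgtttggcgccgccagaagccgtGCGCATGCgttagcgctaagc
UQCR11 (chr19:1605485-1605712, minus strand): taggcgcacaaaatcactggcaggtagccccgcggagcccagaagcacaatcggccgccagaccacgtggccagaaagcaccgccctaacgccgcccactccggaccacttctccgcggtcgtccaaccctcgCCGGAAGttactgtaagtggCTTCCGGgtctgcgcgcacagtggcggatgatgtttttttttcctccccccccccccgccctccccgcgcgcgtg
SDHD (chr11:112086623-112086823, plus strand): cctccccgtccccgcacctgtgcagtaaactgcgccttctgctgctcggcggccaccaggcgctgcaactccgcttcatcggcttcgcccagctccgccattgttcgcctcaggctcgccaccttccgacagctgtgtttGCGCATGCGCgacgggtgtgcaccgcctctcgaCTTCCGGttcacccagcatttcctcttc
UQCRH (chr1:46303448-46303612, plus strand): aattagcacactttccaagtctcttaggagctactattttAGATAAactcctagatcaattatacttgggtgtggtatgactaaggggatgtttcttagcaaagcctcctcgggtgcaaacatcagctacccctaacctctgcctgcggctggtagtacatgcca
NDUFS4 (chr5:53560389-53560634, plus strand): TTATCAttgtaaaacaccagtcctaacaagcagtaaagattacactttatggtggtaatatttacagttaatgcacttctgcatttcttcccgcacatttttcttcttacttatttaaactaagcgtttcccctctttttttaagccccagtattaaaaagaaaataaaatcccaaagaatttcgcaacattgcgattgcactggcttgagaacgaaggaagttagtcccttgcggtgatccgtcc
NDUFS3 and UQCR11 each hold the ETS core in both orientations. SDHD holds 2 overlapping NRF1 cores, 1 on each strand, followed by an ETS core, and NDUFS6 holds 1 NRF1 core.

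The fold changes followed the base composition of the genes. Across the 93 members, log2 fold change and exon GC content had a Spearman correlation of -0.72, -0.64 and -0.81 for Splice del, C321fs and A333fs cells. This is a description, since these points share their libraries. The median GC content was 54.6%, 55.1% and 57.0% among the 48, 43 and 31 members that fell. Only SDHD, at 41.2%, rose in Splice del cells. The median was 42.9% among the 3 that rose in C321fs cells (41.2% to 45.5%). Among the 15 that rose in A333fs cells it was 42.8%. Control libraries had the opposite slope of log2 CPM on GC content (0.11 to 0.19 per 10 percentage points, over all genes) from Splice del (-0.11 to -0.02) and A333fs libraries (-0.22 to -0.13), and C321fs ranged from -0.12 to 0.01, with replicate 1 the highest. The part of library preparation in these slopes was not tested.

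When a smooth trend over GC content and exon length, fitted in each library to genes outside the members, was removed, 61 members fell in Splice del cells (21.8% of all genes), 50 in C321fs cells (17.1%) and 36 in A333fs cells (20%). The edgeR test then called 0 members higher in Splice del cells (15.3% of all genes, and 1 member at an unadjusted p below 0.05), 0 in C321fs cells (10.9%, and 2 at an unadjusted p below 0.05) and 5 in A333fs cells (10.3%). DESeq2 without that removal called 1, 3 and 18 higher. With the trend removed the members' medians were -0.26, -0.20 and -0.13, where the median of all genes was -0.0009, -0.005 and -0.04. The number lower in all 3 lines was then 33 (35.5%, against 10.1% of all genes). The 5 that stayed higher in A333fs cells were SDHD, COX6C, NDUFB3, UQCRH and ATP5O. For the members described below, calls that were lost with the trend removed are given beside their values. Where all libraries of a line are said to lie on 1 side of control, this is common. It held for 62.9%, 54.1% and 65.5% of all genes in Splice del, C321fs and A333fs cells, and for 76.3%, 51.6% and 77.4% of members. Members named for a small adjusted p are likely to show it, so it adds no support to their calls.

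**Figure D3:**
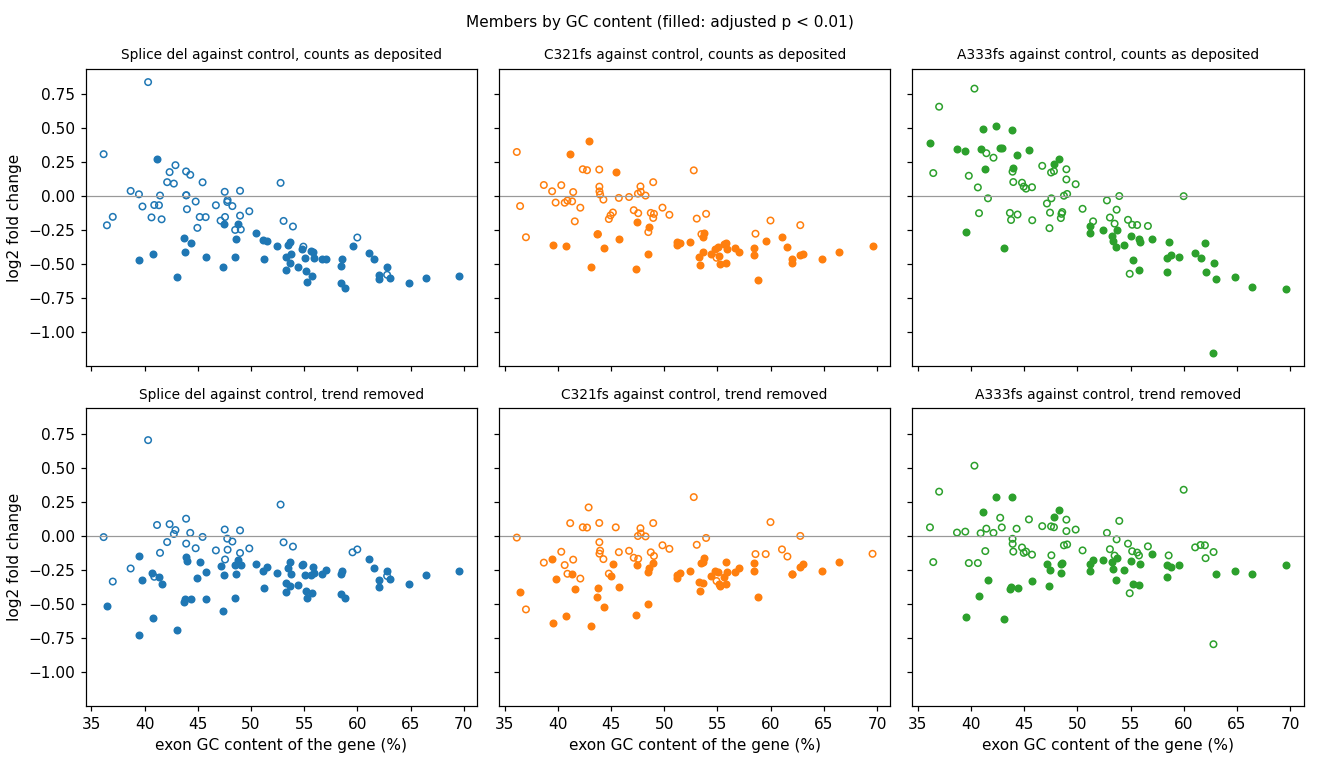
Log2 fold change against control (y axis) and exon GC content in percent (x axis) of the 93 tested members, for the counts as deposited (top) and with the trend over GC content and length removed (bottom). Filled points have an adjusted p below 0.01. In the top row values decrease with GC content (Spearman -0.72, -0.64 and -0.81), and in the bottom row the called members lie below 0 except the 5 in A333fs cells.

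Complex I takes electrons from NADH through a flavin and a chain of iron-sulfur clusters in its core subunits, which are surrounded by accessory subunits. Of its 37 subunits, 23 fell in Splice del and 23 in C321fs cells, and in A333fs cells 15 fell and 5 rose. Removal of the trend changed these to 28, 24 and 17 lower, with 1 higher in A333fs cells. NDUFS6, an accessory subunit close to the NADH-binding module, measured 199.9, 229.4 and 205.5 CPM in control, 133.3, 130.8 and 133.6 in Splice del cells, 152.0, 138.3 and 124.6 in C321fs cells, and 161.1, 154.5 and 154.6 in A333fs libraries. The lowest control library exceeded every mutant library. Its log2 fold change was -0.68 ± 0.07 (SE) in Splice del cells (adjusted p = 1.44e-06), -0.61 ± 0.07 in C321fs cells (7.21e-06) and -0.43 ± 0.07 in A333fs cells (5.89e-05), and it passed in all 3 lines with the trend removed. The core subunit NDUFS3 also fell in all 3, from 142.5 ± 6.58 CPM in control to 99.19 ± 3.73, 106.2 ± 6.69 and 111.2 ± 2.43 CPM (SD, n = 3).

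The core subunits NDUFS7 and NDUFS8, which hold iron-sulfur clusters, and the accessory subunit NDUFB7 were past the fold limit in both Splice del and A333fs cells. NDUFS8 measured 212.3, 247.7 and 231.8 CPM in control, 149.2, 147.8 and 158.4 in Splice del cells, 199.4, 166.0 and 151.2 in C321fs cells, and 157.1, 149.8 and 147.4 in A333fs libraries. Splice del and A333fs cells had almost the same log2 fold change, -0.60 ± 0.08 and -0.61 ± 0.08, and C321fs cells had -0.42 ± 0.08. These 3 genes had exon GC contents of 66.4%, 63.1% and 64.8%, and with the trend removed their log2 fold changes in A333fs cells were -0.28, -0.28 and -0.26, still past the test. The accessory subunits NDUFA11 (-0.61 in Splice del) and NDUFB10 (-0.45 in A333fs cells) fell in all 3 lines too. NDUFA11 missed the test in A333fs cells with the trend removed (-0.16, adjusted p = 0.0705), and NDUFB10 missed it in Splice del and C321fs cells (0.0225 and 0.0152).

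Subunits of complex I that rose did so in A333fs cells alone among the comparisons with control. NDUFB5, an accessory subunit of the membrane arm, measured 179.1, 183.3 and 181.2 CPM in control, 181.1, 182.8 and 185.4 in Splice del cells, 192.2, 188.9 and 176.8 in C321fs cells, and 234.6, 229.2 and 221.4 in A333fs libraries. Its A333fs libraries stood above all others (log2 fold change 0.33 ± 0.05, adjusted p = 2.87e-05). This call was lost with the trend removed (0.03, adjusted p = 0.565), and the exon GC content of NDUFB5 was 39.5%. NDUFB3, another membrane arm subunit, rose from 39.2 ± 3.67 to 54.99 ± 4.31 CPM (0.49 ± 0.10, adjusted p = 0.000683) and passed with the trend removed (0.29, adjusted p = 0.00545). NDUFS1, the largest core subunit, rose by 0.20 ± 0.05 in A333fs cells (adjusted p = 0.0041) and had -0.11 with the trend removed (adjusted p = 0.0471). NDUFS4 and NDUFA5, the other two, named after their values were seen, rose by 0.36 and 0.40 and missed the test with the trend removed.

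Complex II, succinate dehydrogenase, is the only complex without a subunit from mitochondrial DNA and also an enzyme of the citric acid cycle. Its 4 genes did not move together. SDHA, the flavoprotein that oxidizes succinate, measured 391.4, 426.3 and 382.9 CPM in control, 289.0, 290.9 and 300.6 in Splice del cells, 290.7, 291.5 and 300.2 in C321fs cells, and 325.9, 313.0 and 340.4 in A333fs libraries. All 9 mutant libraries were below control, with log2 fold changes of -0.45, -0.44 and -0.29 (SE 0.05 each, largest adjusted p = 0.000199). SDHD, 1 of the 2 membrane anchors that bind ubiquinone, measured 104.7, 105.5 and 112.6 CPM in control, 125.1, 134.0 and 130.8 in Splice del cells, 139.1, 134.5 and 127.2 in C321fs cells, and 153.5, 152.1 and 148.2 in A333fs libraries. All 9 mutant libraries were above control, with log2 fold changes of 0.27, 0.31 and 0.49 (SE 0.05 each, adjusted p = 0.000463, 0.00021 and 2e-06).

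The other anchor, SDHC, fell from 192.4 ± 13.2 CPM in control to 155.4 ± 3.22 in Splice del and 159.1 ± 8.5 in C321fs, and measured 176.8 ± 1.55 CPM in A333fs cells (adjusted p = 0.076). SDHB, which carries the iron-sulfur clusters, fell in Splice del cells, from 90.55 ± 6.05 to 78.44 ± 2.01 CPM (adjusted p = 0.00534), and measured 83.21 ± 2.4 in C321fs (0.0787) and 90.82 ± 1.96 in A333fs cells (0.954). With the trend removed, SDHC was lower in all 3 lines (-0.49, -0.45 and -0.39), while SDHD kept its call in A333fs cells (0.17, adjusted p = 0.00242) and lost it in Splice del (0.08, adjusted p = 0.119) and C321fs cells (0.09, adjusted p = 0.0814). SDHA kept its call in each line. The exon GC content was 53.3% for SDHA and 41.2% for SDHD.

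**Figure D4:**
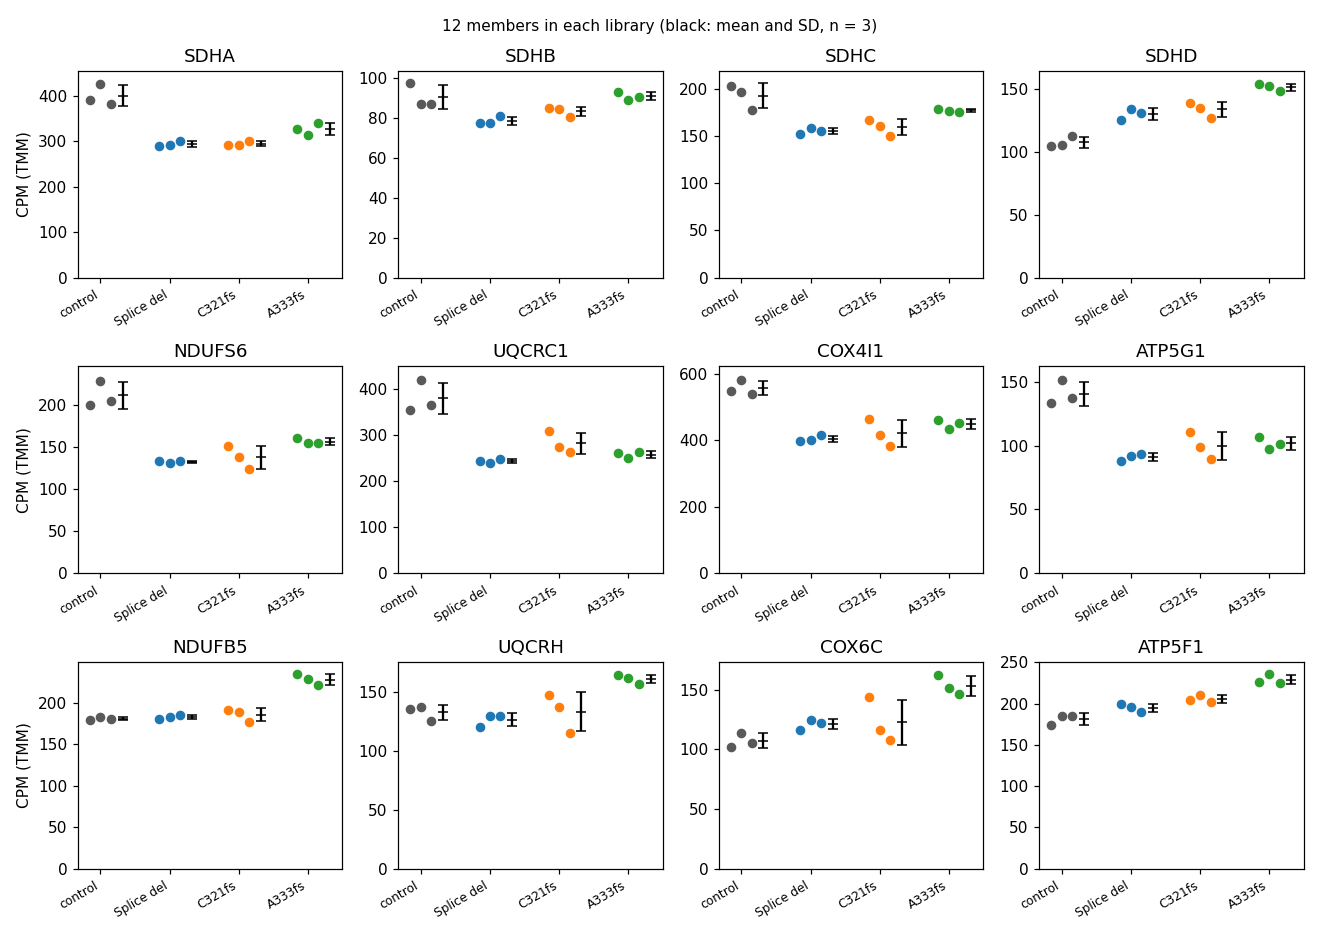
CPM (TMM scaling, y axes from 0) of 12 members in each of the 12 libraries, by line, with the mean and SD (n = 3) in black. SDHA, NDUFS6, UQCRC1, COX4I1 and ATP5G1 are lower than control in all mutant libraries, SDHD is higher in all of them, and NDUFB5, UQCRH and COX6C are highest in the A333fs libraries.

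Complex III passes electrons from ubiquinol to cytochrome c. Of its 8 subunits 4 fell in Splice del and 3 in C321fs cells, and in A333fs cells 2 fell and 3 rose. Of all tested genes 22.4%, 20.7% and 26.4% fell in Splice del, C321fs and A333fs cells. The 2 of 8 in A333fs cells therefore do not exceed the share of all genes. After the trend was removed 6, 4 and 4 subunits fell, and 1 rose in A333fs cells. UQCRC1, 1 of the 2 large matrix-side core proteins, measured 355.3, 419.1 and 365.0 CPM in control, 243.1, 240.2 and 248.6 in Splice del cells, 308.0, 274.2 and 263.0 in C321fs cells, and 260.0, 249.2 and 264.1 in A333fs libraries. It was below control in all 9 mutant libraries, with log2 fold changes of -0.64, -0.43 and -0.56 (SE 0.07 each, largest adjusted p = 0.000118). Its partner UQCRC2 measured 275.6 ± 9.39 in control, 277.1 ± 0.758, 282.6 ± 18.9 and 318.3 ± 3.86 CPM, rising in A333fs cells (0.21 ± 0.05, adjusted p = 0.00319). UQCRC2 changed sign in A333fs cells with the trend removed (-0.06, adjusted p = 0.322), and UQCRC1 passed in all 3 lines.

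The small subunit UQCR11 fell in all 3 lines (-0.55, -0.50 and -0.33). In A333fs cells its adjusted p of 0.00858 passed 0.01 when all libraries were used and when C321fs replicate 1 or 3 was left out, and missed it without any 1 of the other 10. UQCRQ, which lies near cytochrome b, fell from 138.8 ± 2.75 CPM to 96.74 ± 7.82 in Splice del and 95.9 ± 17 in C321fs, and measured 118 ± 2.59 CPM in A333fs cells (adjusted p = 0.0391, or 0.000614 with the trend removed). UQCRH, the hinge protein of cytochrome c1, rose in A333fs cells from 132.6 ± 6.33 to 160.7 ± 3.65 CPM (0.28 ± 0.08, adjusted p = 0.00454) and passed with the trend removed (0.19, adjusted p = 0.00473). It was named after its values were seen. Its near copy UQCRHL was at 5.072 ± 1.07 CPM in control, and how reads shared by both genes were assigned is not given in the sources used here, so both levels are uncertain. UQCRB rose in A333fs cells too (0.35), at an exon GC content of 38.7%, and had 0.03 with the trend removed (adjusted p = 0.868).

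Complex IV, cytochrome c oxidase, hands electrons to oxygen. Of its 11 ubiquitous subunits 6 fell in Splice del and 3 in C321fs cells, and in A333fs cells 3 fell and COX6C rose. Of all tested genes 22.4%, 20.7% and 26.4% fell in Splice del, C321fs and A333fs cells. The 3 of 11 in C321fs and in A333fs cells are therefore little above the share of all genes. After the trend was removed 8, 7 and 3 subunits fell, and COX6C still rose. COX4I1, the largest nuclear subunit, measured 549.2, 583.6 and 541.4 CPM in control, 398.2, 400.0 and 416.0 in Splice del cells, 465.7, 415.2 and 381.9 in C321fs cells, and 460.6, 433.6 and 454.0 in A333fs libraries. All mutant libraries were lower, with log2 fold changes of -0.46, -0.41 and -0.31 (SE 0.06 each, largest adjusted p = 0.0006). In A333fs cells that call was lost with upper-quartile scaling (-0.20) and with library totals alone (-0.17). COX6C measured 102.1, 114.2 and 105.2 CPM in control, 116.4, 124.8 and 122.6 in Splice del cells, 144.1, 116.4 and 108.3 in C321fs cells, and 162.2, 151.7 and 146.2 in A333fs libraries. It rose in A333fs cells by 0.52 ± 0.09 (adjusted p = 8.79e-05) and by 0.29 with the trend removed (0.00131).

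Several subunits of complex IV exist as isoforms for particular tissues. T47D cells expressed the ubiquitous ones: per kilobase of exon, COX4I1, COX6A1, COX6B1, COX7A2, COX7B and COX8A lay between 133.1 and 952.4 CPM per kb in control, and COX7B2, the highest alternative gene, was at 1.281 CPM per kb. COX6A1 (-0.36 in Splice del), COX6B1 (-0.45, -0.38 and -0.29), COX7A2 (-0.41 in Splice del) and COX8A (-0.46 in Splice del and -0.33 in A333fs) fell, and COX7B did not pass against control. After removal of the trend COX8A missed the test in A333fs cells (-0.14, adjusted p = 0.0194) and COX7A2 passed in all 3 lines. Among the alternative genes COX7B2 was at 0.696 ± 0.171 CPM in control and 1.224 ± 0.454 in Splice del cells (adjusted p = 0.0176). NDUFA4L2, a low-oxygen counterpart of the subunit NDUFA4, measured 0.8821, 0.6093 and 0.7292 CPM in control and 0.2905, 0.2871 and 0.4109 in A333fs libraries. The A333fs libraries were below control (log2 fold change -1.15 ± 0.33, adjusted p = 0.00655), but at this depth the call was lost without A333fs replicate 1 or 2 or control replicate 1 or 3, and with the trend removed (-0.80, adjusted p = 0.0528). NDUFA4 itself was at 261.3 ± 12 CPM in control and passed in no line, though with the trend removed it was lower in Splice del (-0.32, adjusted p = 0.0034) and C321fs cells (-0.32, adjusted p = 0.00522).

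COX7A2L, a relative of COX7A2 that joins complexes III and IV into supercomplexes, was the member with the largest decrease after the trend was removed in C321fs and A333fs cells, and second to ATP5G3 in Splice del, leaving out the low NDUFA4L2. It measured 118.4, 118.2 and 108.9 CPM in control, 74.49, 77.21 and 77.52 in Splice del cells, 94.03, 77.61 and 68.91 in C321fs cells, and 87.82, 89.91 and 88.14 in A333fs libraries, so that control stood above all of them. Log2 fold changes were -0.59, -0.52 and -0.38 (SE 0.08 each, largest adjusted p = 0.000985), and -0.69, -0.66 and -0.61 with the trend removed, at an exon GC content of 43.1%.

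Complex V consists of the F1 head, where ATP is made, and the membrane-bound Fo part with its stalk. Of 15 tested subunits, 8 fell in Splice del and 8 in C321fs cells, where 1 rose, and in A333fs cells 6 fell and 2 rose. After the trend was removed 10, 8 and 6 fell, and 1 rose in A333fs cells. ATP5B measured 1808, 1919 and 1690 CPM in control, 1302, 1311 and 1330 in Splice del cells, 1432, 1425 and 1378 in C321fs cells, and 1511, 1468 and 1503 in A333fs libraries. Its mutant libraries were all lower, with log2 fold changes of -0.46, -0.36 and -0.27 (SE 0.05 each, largest adjusted p = 0.00039). Its partner in the head, ATP5A1, passed in no comparison with control (-0.11, -0.08 and 0.09). ATP5D, the delta subunit and the member with the highest GC content (69.6%), fell by 0.59 in Splice del and 0.69 in A333fs cells, and by 0.26 and 0.22 with the trend removed. In C321fs cells it fell by 0.37 (adjusted p = 0.00256) and missed the test with the trend removed (0.0276).

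ATP5G1, ATP5G2 and ATP5G3 encode the same mature c subunit, the rotating ring of Fo, from 3 loci, and all 3 fell in all 3 lines. ATP5G1 measured 133.5, 151.5 and 137.9 CPM in control, 88.06, 92.02 and 93.75 in Splice del cells, 110.9, 98.94 and 89.68 in C321fs cells, and 107.0, 97.09 and 101.3 in A333fs libraries. It had log2 fold changes of -0.63, -0.50 and -0.47, against -0.41, -0.34 and -0.31 for ATP5G2 and -0.47, -0.36 and -0.27 for ATP5G3. With the trend removed, ATP5G3, whose exons have 39.5% GC, had the largest of the 3 decreases (-0.73, -0.64 and -0.60), and ATP5G2 missed the test in A333fs cells (-0.14, adjusted p = 0.0169). Per kilobase, ATP5G2 was the highest in control at 420.3 ± 38.8 CPM per kb, then ATP5G1 at 218.2 ± 14.5 and ATP5G3 at 74.44 ± 3.53.

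In the stalk, ATP5F1, the b subunit, rose in C321fs and A333fs cells. It measured 173.6, 185.5 and 185.0 CPM in control, 199.1, 195.7 and 189.6 in Splice del cells, 204.5, 210.5 and 201.6 in C321fs cells, and 226.7, 235.6 and 225.2 in A333fs libraries, with log2 fold changes of 0.10, 0.18 and 0.34 (adjusted p = 0.0832, 0.00579 and 2.58e-05). The C321fs call was lost without control replicate 1, C321fs replicate 2, Splice del replicate 2 or A333fs replicate 1, and both calls were lost with the trend removed (0.06 and 0.12). ATP5O, the subunit that ties the stalk to the head, rose in A333fs cells by 0.24 (adjusted p = 0.00257) and by 0.14 with the trend removed (0.00742). It missed the test without A333fs replicate 1 or control replicate 1 or 3. Levels of ATP5E, ATP5J, ATP5J2, NDUFC2 and NDUFB2 are uncertain, since 66.3%, 48.8%, 35.4%, 32.2% and 28.3% of their exon length overlaps another gene.

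Members outside the complexes moved less uniformly. ATP5SL, also known as DMAC2 and needed to assemble the membrane arm of complex I, fell from 58.42 ± 4.72 CPM in control to 38.95 ± 2.57, 41.69 ± 4.17 and 40.21 ± 2.35 CPM (largest adjusted p = 0.000172). Of the 7 complex I assembly factors of the NDUFAF family, NDUFAF3 fell in all 3 lines (-0.52, -0.44 and -0.49) and NDUFAF2 in Splice del and C321fs cells. NDUFAF3 missed the test in A333fs cells with the trend removed (-0.12, adjusted p = 0.047) and NDUFAF2 passed in all 3 lines. NDUFAF7, a methyltransferase for a core subunit, rose in C321fs (0.41, adjusted p = 0.0022) and A333fs cells (0.35, adjusted p = 0.00406), from 11.95 ± 0.908 to 15.84 ± 1.37 and 15.28 ± 0.894 CPM. Its C321fs call was lost without C321fs replicate 2 or control replicate 2 or 3. NDUFAF5 and NDUFAF6 rose in A333fs cells (0.35 and 0.31). With the trend removed no increase of NDUFAF5, NDUFAF6 or NDUFAF7 against control passed.

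Fewer members passed between mutant lines than against control. Between Splice del and C321fs cells, edgeR called 0 members higher and 0 lower (4.18% and 2.14% of all genes), with 2 and 5 at an unadjusted p below 0.05, and DESeq2 also called 0 in each direction. A333fs cells were higher than C321fs cells in 4 members and lower in 0 (6.80% and 8.89% of all genes). At an unadjusted p below 0.05 the counts were 35 and 4, and DESeq2 called 14 and 1. Against Splice del cells, A333fs cells were higher in 10 members and lower in 0 (4.63% and 7.29% of all genes), with 57 and 0 at an unadjusted p below 0.05 and 27 and 0 with DESeq2. Past the fold limit there was no member in any pair, where 2.64%, 5.55% and 3.0% of all genes were.

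The 10 members higher in A333fs than in Splice del cells were NDUFB5, NDUFS1, NDUFAF4, NDUFAF5, SDHD, UQCRH, COX6C, ATP5A1, ATP5F1 and ATP5O, and the 4 higher than in C321fs cells were NDUFB5, NDUFS1, NDUFAF5 and NDUFAF6. NDUFB5 had the smallest adjusted p of the members in both, with log2 fold changes of 0.32 ± 0.05 (adjusted p = 0.000279) and 0.30 ± 0.05 (0.000291), and it passed both with the trend removed (0.18 and 0.20). NDUFS1 passed both too, at 0.27 and 0.24, and at 0.19 and 0.17 with the trend removed. Against Splice del cells UQCRH, NDUFAF4 and ATP5O also kept their calls, and SDHD, COX6C, ATP5A1, ATP5F1 and NDUFAF5 lost them, as did NDUFAF5 and NDUFAF6 against C321fs cells. Members had a median log2 fold change of 0.19 between A333fs and Splice del cells and 0.13 between A333fs and C321fs cells, where all genes had -0.02 in both. Leaving out each library in turn gave 0.168 to 0.227 for the first, and for the second 0.0647 (without C321fs replicate 3) to 0.196 (without C321fs replicate 1). The members' medians with the trend removed were 0.11 and 0.08, where all genes had -0.02 and -0.03.

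These pair counts depended on single libraries. The 10 became 37 without C321fs replicate 1, 22 without C321fs replicate 3, 6 without C321fs replicate 2, 5 and 2 without A333fs replicate 3 and 1, and 2, 1 and 1 without Splice del replicates 1, 2 and 3. The 4 became 32 without C321fs replicate 1, 2 without C321fs replicate 2 or 3, and 1 without A333fs replicate 1 or 3, and without C321fs replicate 3 there were also 2 members lower, 1 of them past the fold limit. A fit of A333fs and Splice del libraries alone called 45 members higher in A333fs cells. C321fs replicate 1, with a summed member level of 14188 CPM against 12768 and 11883 CPM in its sister libraries, enters the fit of all 12 libraries through the shared estimate of the spread.

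Other genes of the same process were read from lists of named genes. Of 18 genes of pyruvate dehydrogenase and the citric acid cycle, 11, 10 and 8 fell in the 3 lines (Splice del, C321fs and A333fs, here and below), and 1, 0 and 3 rose, and with the trend removed 12, 14 and 11 fell and the edgeR test called 0 higher in each line (0 in each also at an unadjusted p below 0.05). MDH2, mitochondrial malate dehydrogenase, fell in each line (-0.57, -0.44 and -0.55), as did DLST of the oxoglutarate dehydrogenase complex (-0.49, -0.42 and -0.35), and PDHB of pyruvate dehydrogenase fell in Splice del and C321fs cells (-0.45 and -0.51). The 16 electron carriers and coenzyme Q genes had 7, 7 and 5 lower, among them CYC1, cytochrome c1 of complex III (-0.74, -0.49 and -0.65), and the coenzyme Q kinases COQ8A (-0.65, -0.56 and -0.47) and COQ8B (-0.45, -0.35 and -0.65). Removal of the trend left 8, 4 and 4 of these 16 lower. Of 24 assembly factors for complex IV outside the name rule, 7, 5 and 3 fell (22.4%, 20.7% and 26.4% of all genes). The numbers that rose were 0, 1 and 5 (18.7%, 16.1% and 21.0% of all genes). These counts depended on the trend over GC content and length: with it removed 10, 10 and 6 fell and the edgeR test called 0 higher in each line (0, 1 and 3 at an unadjusted p below 0.05). SURF1, TACO1 and COX14 fell in all 3 lines. Of 9 for complex I, 4, 3 and 3 fell and 1, 2 and 2 rose. ECSIT fell (-0.61, -0.48 and -0.66), FOXRED1 fell (-0.52, -0.44 and -0.45) and TMEM126B rose (0.41, 0.29 and 0.65) in every line.

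Of 6 factors for complex III, 3, 2 and 3 fell and 1, 1 and 2 rose, with BCS1L (-0.62, -0.39 and -0.45) and UQCC2 (-0.62, -0.67 and -0.41) lower and TTC19 higher (0.27, 0.23 and 0.29) in every line. Of 3 tested factors for complex II, SDHAF1 fell in Splice del (-0.49) and A333fs cells (-0.44). Of 4 for complex V, ATPAF2 fell in all 3 lines (-0.29, -0.27 and -0.29) and ATPAF1 rose in A333fs cells (0.22). Among 15 tested regulators of mitochondrial gene expression, 7, 5 and 7 fell and 2, 4 and 5 rose, and 4, 4 and 5 fell and 2, 1 and 2 rose with the trend removed. PPARGC1A, a coactivator that drives mitochondrial gene expression, rose by 1.38 ± 0.16, 0.60 ± 0.18 and 1.90 ± 0.16 in the 3 lines, while its relative PPRC1 (-0.58, -0.54 and -0.60) and the mitochondrial RNA polymerase POLRMT (-0.63, -0.45 and -0.73) fell. Of 17 glycolysis genes, 14, 5 and 14 fell and 0, 3 and 1 rose, and with the trend removed 14, 3 and 10 fell and 0, 4 and 0 rose (0, 5 and 1 higher at an unadjusted p below 0.05), the list's median in C321fs cells moving from -0.09 to 0.05. PFKP, a phosphofructokinase, fell in Splice del and A333fs cells (-0.76 and -0.78) and rose in C321fs cells (0.27), HK2 fell in Splice del and A333fs cells (-0.72 and -0.48), and PFKL fell in all 3 lines. These lists were tested in the same edgeR fit, with p-values adjusted over all genes, and their counts stand beside the shares of all genes given above. Removing the trend ended the calls of ATPAF2 in all 3 lines, of SDHAF1 in both of its lines, of TMEM126B, COQ8B, PPARGC1A and PFKL in C321fs cells, and of TTC19, COX14, COQ8A and ATPAF1 in A333fs cells.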

How the data were processed

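RNA-seq libraries were prepared by the authors from 4 stable T47D lines, 3 libraries each, with a NEBNext Ultra II kit whose strand information was not used. Fragments were counted per gene on hg38 with featureCounts 1.6.4, per the labels. The deposited counts are whole numbers with no normalization. The aligner is unsettled, since the column names and the processing notes name different ones, and so is the growth medium, which differs between the labels and the study's methods. ChIP-seq libraries of the series were not used here.

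The members and gene lists were chosen with earlier results of these data known. Counts of all 12 libraries were filtered with filterByExpr, scaled by TMM and fitted together with edgeR 4.0.16 (R 4.3.3) with 1 coefficient per line. The quasi-likelihood test gave the 6 comparisons, and an F-test any difference among the 4 lines. P-values are two-sided and were adjusted by Benjamini-Hochberg over all genes tested. A member passed at an adjusted p below 0.01, and was past the fold limit if its fold change also exceeded 1.5. The SE of a log2 fold change is its size over the square root of F. As an alternative, a loess trend (span 0.3) of log2 counts on exon GC content and length was fitted in each library to genes outside the members and removed through offsets. Other alternatives were DESeq2 1.42.0, other scalings and filters, a replicate block and leaving out each library. The edgeR procedure was also run on simulated data, whose outcome is not reported here and is not used as support for the calls. Named were members past the fold limit, the 2 members with the smallest adjusted p in each direction per complex and comparison with control, the SDH genes, the isoform groups, the 3 members with the smallest adjusted p per pair of mutant lines, and up to 3 genes of each other list. Members named otherwise are the full sets of a count or were chosen after their values were seen. Promoters come from RefSeq.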

Additional observations from a re-analysis of the deposited data

How the results depend on the processing

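Depth of 27872208 to 36788024 counts was ample for the subunits but not for genes such as NDUFA4L2, and every line was 1 pool. Of the 56 fold changes of named members, all kept their direction and call with RLE scaling and with the replicate block. These 56 were picked from the main fit as past the fold limit or smallest in adjusted p. That choice by itself favors keeping a call, so they do not stand for the members in general. With library totals alone 8 lost their call, with upper-quartile scaling 4, and with the trend over GC content and length removed 10 lost it and 1 changed sign: UQCRC2 in A333fs cells against control, at -0.0577, and at -0.0574 with the replicate block added. The cause was not tested.

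Upper-quartile scaling gave 5 members higher and 1 past the fold limit in Splice del cells, 6 and 0 in C321fs cells, and 24 higher and 17 lower in A333fs cells, and A333fs cells were higher than C321fs in 9 and than Splice del in 16 members. Library totals alone gave 13 higher, 29 lower and 1 past the limit in Splice del cells, 12, 16 and 0 in C321fs cells, and 28 higher and 15 lower in A333fs cells, with 1 lower in A333fs than in C321fs cells. Without the filter 3 were higher in Splice del cells, and A333fs cells had 17 higher and 1 lower than C321fs and 34 higher than Splice del. With at least 10 counts in every library, as with DESeq2, 3 members were past the limit in A333fs cells. DESeq2 gave 14 higher and 1 lower in A333fs than C321fs cells and 27 higher than Splice del. Fits of 2 lines alone gave 4 higher in Splice del cells, 1 higher in A333fs than C321fs and 45 higher than Splice del cells. At an adjusted p below 0.05 there were 4 higher in Splice del cells, 23 higher, 2 lower and 1 past the limit in A333fs against C321fs, and 35 higher against Splice del cells. Structural subunits alone gave 2 higher in A333fs than C321fs cells.

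Removing the trend left 0 members higher and 3 past the limit in Splice del cells, 0 and 3 in C321fs cells, and 5 and 2 in A333fs cells, and 10 were higher in A333fs than C321fs cells. The replicate block with the trend removed gave 0 and 3, 0 and 4, 5 and 2, and 10. Libraries with the same replicate number did not deviate together on average (mean correlation -0.00915 over 18 pairs, -0.123 to 0.165). Whether libraries of the same number shared a culture or preparation was not tested. The replicate block alone gave 1 member higher and 48 lower in Splice del cells, 3 and 44 in C321fs cells and 15 and 31 in A333fs cells, 4 and 7 higher in A333fs than in C321fs and Splice del cells, and 62 that differed among the 4 lines.

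Leaving out each library in turn gave 1 to 2 higher, 41 to 54 lower and 1 to 12 past the limit in Splice del cells, 1 to 4, 25 to 55 and 0 to 10 in C321fs cells, and 8 to 19, 19 to 38 and 2 to 6 in A333fs cells. A333fs cells were higher than C321fs in 1 to 32 and lower in 0 to 2, with 0 to 1 past the limit, and higher than Splice del in 1 to 37. Members that differed among the 4 lines numbered 48 to 79.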
